A study of Mustela putorius furo with 10 samples.

Results

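The SLC25 family comprises the carrier proteins that move metabolites, nucleotides, cofactors and metal ions across the inner membrane of mitochondria. They are encoded in the nucleus, are inserted into that membrane after import from the cytosol, and mostly exchange 1 substrate for another, so that each carrier joins a pathway of the cytosol to one of the matrix. A few members sit elsewhere, such as SLC25A17 in peroxisomes and SLC25A46 in the outer mitochondrial membrane. In blood, the family is best known for mitoferrin 1 (SLC25A37), which brings iron into mitochondria for the synthesis of haem and iron-sulfur clusters.

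The genes described here are those whose ferret symbol begins with SLC25A and whose probes gave a signal in peripheral blood mononuclear cells (PBMC). Of 45 such symbols in the RefSeq table of the ferret, 30 were matched to array probes through the accession of the target sequence. A total of 26 were well above background in the PBMC channel on at least 4 of the 10 arrays, and these are the genes tested, out of 26303 genes tested in all. SLC25A2, SLC25A31, SLC25A41 and SLC25A45 had probes but did not reach that level, and the other 15 symbols were not matched.

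PBMC were taken from male ferrets of 3 months of age. The 6 control ferrets were kept at 22 °C and the 4 cold ferrets at 4 °C for 1 week, with free access to food in both groups and individual housing stated for the cold ferrets only. PBMC were separated on a Ficoll gradient, and total RNA of each ferret was labelled with the green dye Cy3 and hybridised to its own 2-colour array against a Cy5-labelled reference pool. The pool held PBMC RNA mixed with that of other tissues and was the same on every array. No array carried swapped dyes, so a dye bias of a probe is part of every ratio given here. The comparison asks how 1 week in the cold changes the RNA of these carriers in circulating cells. Because PBMC are a mixture, fewer cells of a type and less RNA per cell cannot be told apart.

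Values are log2 ratios of Cy3 to Cy5 after background correction and loess normalization, averaged over the probes of a gene. Values above 0 stand for a higher signal of the ferret than of the pool, and a change is the mean of the cold arrays minus that of the control arrays. The number of arrays limits the precision of every value. Between 50.4 and 63.5% of the spots of a control array were well above background in Cy3, and between 58.0 and 61.1% of those of a cold array. The Cy5 channel was dimmer and less even, at 27.0 to 54.9% in control and 40.5 to 64.0% in cold. Several of the carriers below had their low ratios on arrays with a high Cy5 share. The correlation between arrays, computed over genes that do not count as replicates, lay between 0.84 and 0.94 for control pairs, 0.87 and 0.92 for cold pairs and 0.76 and 0.93 for mixed pairs.

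With loess normalization, the carriers were split evenly between higher and lower in cold. A higher mean was measured for 13 and a lower mean for 13 of the 26 genes, against 48% and 52% of all genes, and the median change was -0.02 beside -0.01 over all genes. The split depended on the scaling, with 3 higher and 23 lower under median centring (77.1% of all genes lower) and 8 higher and 18 lower with the scanner software's processed intensities (61.5% of all genes lower). The median size of a change was 0.166 log2 units for the carriers and 0.149 for all genes, with a median SD between control arrays of 0.165 and 0.160. None of the 26 carriers passed an adjusted p of 0.05 (limma with Benjamini-Hochberg adjustment over all genes), and nor did any other gene (0%). At an unadjusted limma p under 0.01, the threshold of the study's methods, there were 3 carriers (11.5%) beside a background of 8.64% of all genes. All 3 were higher in cold, namely SLC25A37, SLC25A33 and SLC25A44, where the background in that direction is 5.21% and the background of lower genes 3.43%. At a p under 0.05 there were 10 carriers against a background of 24.7%. Of these, 4 were higher (background 12.2%) and 6 lower (background 12.5%). The methods' t-test called none of the carriers after adjustment either. The cold and control arrays did not overlap for 3 carriers, 1 higher (background 3.07%) and 2 lower (background 2.15%), which together is 11.5% beside 5.22% of all genes.

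**Figure D1:**
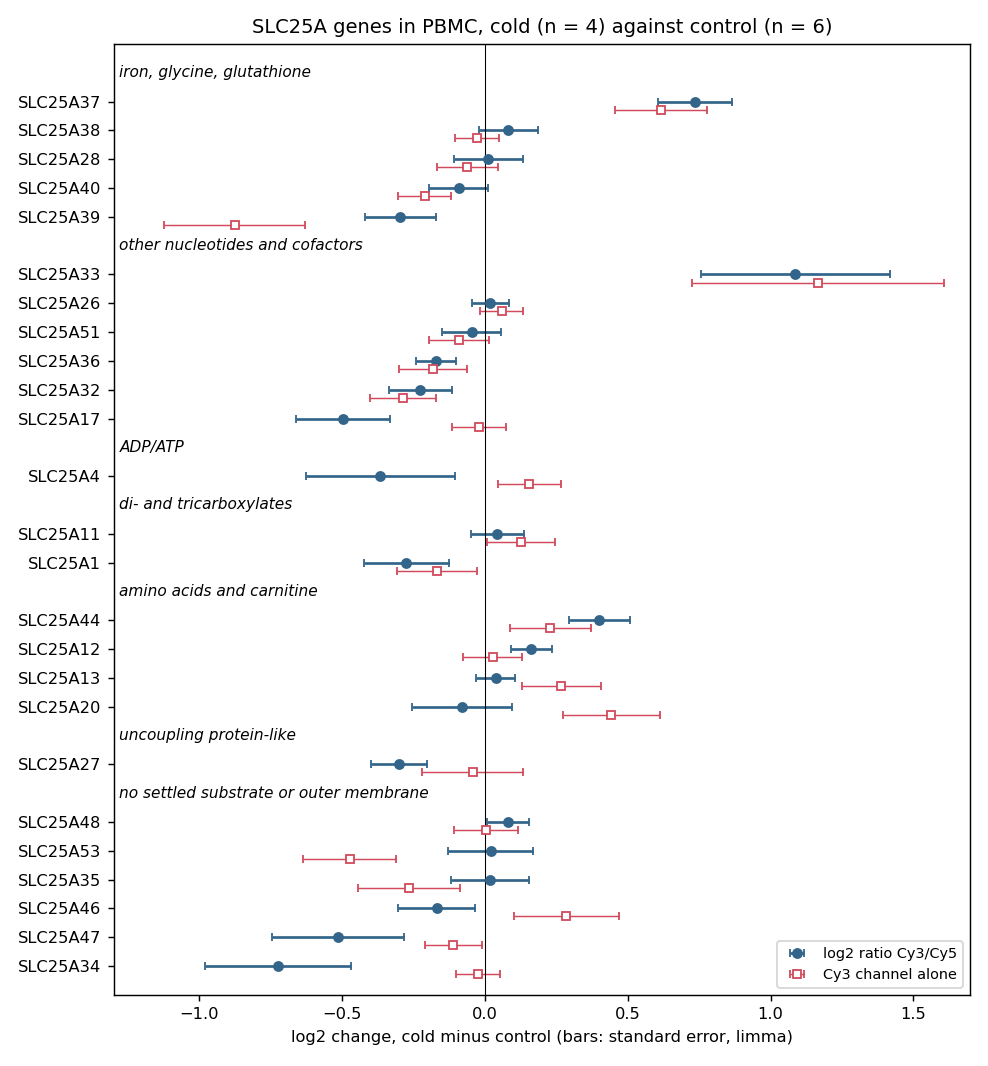
Log2 change, cold (4 arrays) minus control (6 arrays), of 25 of the carriers, grouped by the substrates they carry, with the standard error of limma as bars. Filled circles are changes of the Cy3 to Cy5 ratio and open squares are changes of the Cy3 channel alone. SLC25A37, at 0.74 and 0.62, and SLC25A33, at 1.09 and 1.17, are high on both scales, whereas SLC25A34, at -0.73 and -0.03, is low on the ratio only.

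The iron, glycine and glutathione carriers were all 5 tested, with 3 of them higher and 2 lower in cold. SLC25A37, mitoferrin 1, had the lowest p of the family, and no gene tested had a lower adjusted p. Its log2 ratio in control was 0.50 at the lowest, 0.69 at the median and 0.82 at the highest. In cold it was 1.17, 1.15, 1.80 and 1.56 on replicates 1 to 4. Every cold array therefore lay above every control array, and cold replicates 3 and 4 were the highest. The change was 0.74 (standard error 0.13), from 0.68 ± 0.11 (SD, n = 6) to 1.42 ± 0.31 (SD, n = 4), with a limma adjusted p of 0.0576. The exact permutation test over the 210 splits of the arrays, two-sided, gave 0.00476, the smallest p that 6 against 4 arrays allow. All 4 probes were higher in cold, by 0.60 to 0.87 log2 units. The Cy3 channel alone, quantile normalized, gave a change of 0.62 (standard error 0.16), while that of the Cy5 channel of the same probes was 0.04. Median centring instead of loess gave a change of -0.05 for SLC25A37 and a median of -0.43 for all genes. In the deposited value table the change of SLC25A37 was 0.38 (standard error 0.25, limma adjusted p = 0.295).

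SLC25A28, mitoferrin 2, imports iron in cells of most tissues. Its change was 0.01 (standard error 0.12), and its control arrays ran from -0.37 to 0.16, a range that holds all 4 cold arrays (-0.31, 0.01, -0.04 and 0.06). The difference between the log2 ratios of the mitoferrins, SLC25A37 minus SLC25A28, was thus wider in cold. It was 0.48 to 1.13 in control and 1.14 to 1.84 in cold, without overlap, and the gap rose by 0.72 (exact permutation p = 0.00952, two-sided, 0.0317 after adjustment over the 5 pairs of like carriers compared). With changes of 0.74 for SLC25A37 and 0.01 for SLC25A28, this test largely repeats that of SLC25A37 and adds no separate evidence. The adjustment covers the 5 pairs only, not all genes. In the Cy3 channel alone the gap was larger in cold by 0.68 (exact permutation p = 0.0190, adjusted 0.0833).

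SLC25A38, which supplies mitochondria with the glycine used in the first step of haem synthesis, was among the 3 carriers with the highest ratio to the pool in control. Its control arrays gave 0.40 at the lowest, 0.48 at the median and 0.85 at the highest, and the cold arrays 0.54, 0.49, 0.76 and 0.67. The groups overlapped, and the change of 0.08 had a standard error of 0.10. SLC25A39 and SLC25A40 carry glutathione into mitochondria. For SLC25A39 the control ratios were -0.31 to 0.10 and the cold ratios -0.19, -0.45, -0.73 and -0.24, a change of -0.30 (standard error 0.12, unadjusted limma p = 0.0356, adjusted 0.175, exact permutation p = 0.0524). Without cold replicate 3 the change was -0.19 (standard error 0.11) and its unadjusted limma p was no longer under 0.05 (0.128). That p was also above 0.05 without control replicate 1 (0.0728), 2 (0.0504) or 6 (0.0703) or without cold replicate 2 (0.0750). With the processed intensities the change of SLC25A39 was -0.60 (standard error 0.21) and in the value table -0.69 (standard error 0.25). Both channels of its probes were dimmer in cold, Cy3 by 0.88 log2 units (standard error 0.25) and Cy5 by 0.31. On the Cy3 scale it was 1 of 2 carriers with an unadjusted limma p under 0.01, beside SLC25A37 (9.84% of all genes). SLC25A40 had a change of -0.09 (standard error 0.10), and the change of the difference between both carriers was -0.20 (exact permutation p = 0.138 before and after adjustment over the 5 pairs).

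The carriers of other nucleotides and cofactors hold the largest change of the family. SLC25A33 moves pyrimidine nucleotides between cytosol and matrix. Its control ratios were -0.47 at the lowest, 0.07 at the median and 1.27 at the highest, and its cold ratios 1.17, 0.53, 1.95 and 1.497. Control replicate 6, the highest control array, lay above cold replicates 1 and 2, so that the groups overlapped. The change was 1.09 (standard error 0.33, unadjusted limma p = 0.00725, adjusted 0.106, exact permutation p = 0.0286). All 4 probes were higher in cold, by 0.93 to 1.25, and Cy3 alone gave 1.17 (standard error 0.44) and Cy5 alone 0.04. Without control replicate 6 the change was 1.30, and without cold replicate 3 it was 0.87. Its unadjusted p stayed under 0.01 only when control replicate 6 or cold replicate 2 was left out, and rose above that value when any of the other 8 arrays was.

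SLC25A36, the other pyrimidine nucleotide carrier, differed in the opposite direction. Its control ratios were 0.02 at the lowest, 0.08 at the median and 0.18 at the highest, and its cold ratios -0.20, -0.01, -0.06 and -0.04. The groups did not overlap, with cold replicate 1 the farthest below control. The change was -0.17 (standard error 0.07, unadjusted limma p = 0.0304, adjusted 0.164, exact permutation p = 0.00476), with 8 of 8 probes lower and a Cy3 change of -0.18. With the processed intensities it was -0.57 (standard error 0.24). Its reference signal was weak, since at least 1 probe was well above background in Cy5 on 2 of 6 control and 3 of 4 cold arrays. The difference SLC25A33 minus SLC25A36 rose by 1.26 in cold (exact permutation p = 0.0143, adjusted over the 5 pairs 0.0317). In Cy3 alone it was larger by 1.35 (adjusted 0.0833). Both carriers had already been singled out on these same arrays, so the test of their difference adds no separate evidence.

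**Figure D2:**
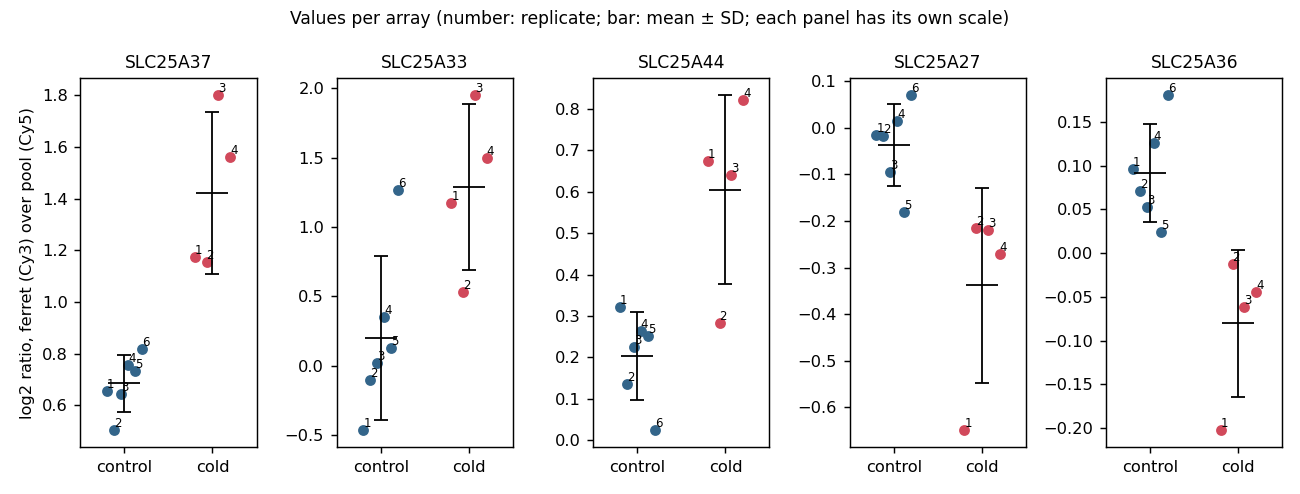
Log2 ratio of ferret to pool on each array for the 3 carriers with an unadjusted p under 0.01 and for the other 2 whose groups did not overlap. Points are arrays marked by replicate number, the bars show mean ± SD of 6 control and 4 cold arrays, and each panel has its own scale. The groups are apart for SLC25A37, SLC25A27 and SLC25A36, while control replicate 6 overlaps the cold arrays for SLC25A33 and cold replicate 2 the control arrays for SLC25A44.

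SLC25A17, which carries coenzyme A, FAD and NAD into peroxisomes, had one of the 3 lowest ratios to the pool in control. Control arrays gave -1.46 at the lowest, -0.88 at the median and -0.71 at the highest, and cold arrays -1.73, -1.19, -1.54 and -1.60. The change was -0.50 (standard error 0.17, unadjusted limma p = 0.0118, adjusted 0.120, exact permutation p = 0.0429), and 4 of 4 probes were lower. In the Cy3 channel alone the change was -0.02 (standard error 0.09), and the Cy5 channel of its probes was brighter in cold by 0.16. For SLC25A32, SLC25A51 and SLC25A26 the cold arrays overlapped the control arrays. SLC25A32, the folate and FAD carrier, had a change of -0.23 (standard error 0.11, exact permutation p = 0.0714), and of -0.29 in Cy3 alone. The change was -0.05 for SLC25A51, the NAD carrier, and 0.02 for SLC25A26, which carries S-adenosylmethionine.

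Among the carriers of amino acids and carnitine, 3 of the 4 tested were higher in cold. SLC25A44 imports branched-chain amino acids for breakdown in the matrix. Its control ratios were 0.02 at the lowest, 0.24 at the median and 0.32 at the highest, and its cold ratios 0.68, 0.28, 0.64 and 0.82. Cold replicate 2 lay within the control range and the other 3 cold arrays above it. The change was 0.40 (standard error 0.11, unadjusted limma p = 0.00321, adjusted 0.0863, exact permutation p = 0.00952), and 4 of 4 probes were higher. In Cy3 alone it was 0.23 (standard error 0.14), and with the scanner software's processed intensities 0.10. Its unadjusted p was above 0.01 when cold replicate 1 (0.0108) or cold replicate 4 (0.0128) was left out.

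SLC25A12 and SLC25A13 are the 2 aspartate-glutamate carriers, which export aspartate from the matrix in the malate-aspartate shuttle. SLC25A12 gave 0.10 to 0.25 in control and 0.44, 0.31, 0.20 and 0.37 in cold, a change of 0.16 (standard error 0.07, unadjusted limma p = 0.0459, adjusted 0.195, exact permutation p = 0.0190), with 8 of 8 probes higher. Its change was 0.03 (standard error 0.10) in Cy3 alone, -0.13 with the processed intensities and -0.13 with median centring. SLC25A13 had a change of 0.04 (standard error 0.07), and the gap between the pair rose by 0.13 (exact permutation p = 0.0190, adjusted 0.0317). In Cy3 alone the change of that gap was -0.24 (adjusted p = 0.190 by the same exact test), opposite in sign to that of the ratio. SLC25A20, the carnitine-acylcarnitine carrier through which fatty acids reach beta-oxidation, had a change of -0.08 (standard error 0.17) on the ratio and of 0.44 (standard error 0.17, limma adjusted p = 0.143) in Cy3 alone.

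**Figure D3:**
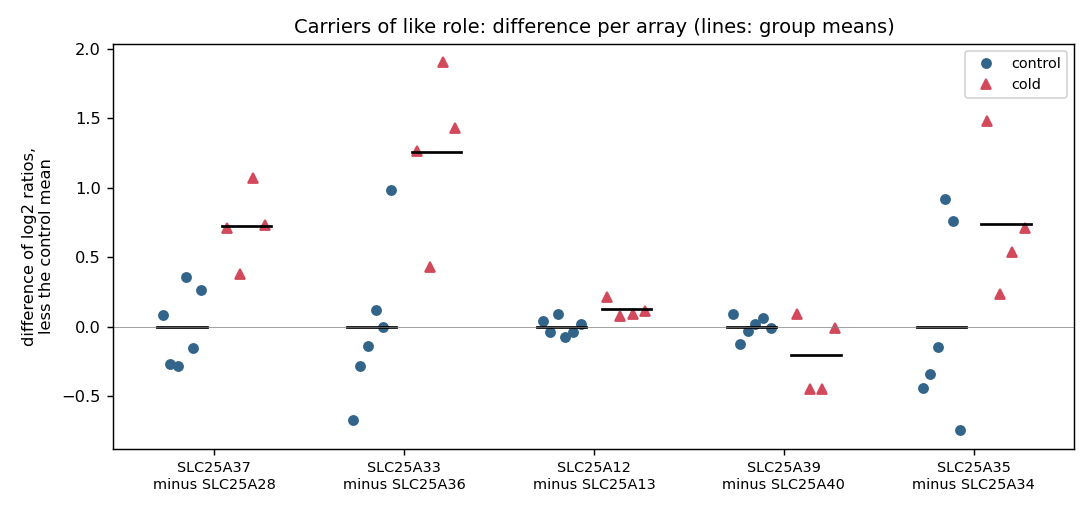
Difference between the log2 ratios of 5 pairs of carriers with like roles on each array, with the mean of the control arrays set to 0. Circles are the 6 control arrays, triangles the 4 cold arrays and lines the group means. The cold arrays lie above all control arrays for SLC25A37 minus SLC25A28, and the cold means of the 5 pairs are 0.72, 1.26, 0.13, -0.20 and 0.74 from left to right.

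SLC25A1, SLC25A11 and SLC25A4 serve the core exchange of carbon and energy. SLC25A1, the citrate carrier, had the lowest ratio to the pool of the family in control, with -1.88 at the lowest, -1.46 at the median and -1.27 at the highest. Its cold ratios were -1.91, -1.56, -1.77 and -1.998, and the change of -0.27 (standard error 0.15, exact permutation p = 0.110) came with a Cy3 change of -0.17. SLC25A11, which exchanges oxoglutarate for malate, had a change of 0.04 (standard error 0.09). SLC25A4, an ADP/ATP exchanger, was the only one of its 9 listed role members to be tested. Its control ratios ran from -1.83 to -0.53 with a median of -0.99, and its cold ratios were -1.50, -0.71, -1.78 and -1.78. The arrays overlapped widely, and the change of -0.37 (standard error 0.26) became 0.16 (standard error 0.11) in Cy3 alone.

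SLC25A27, known as uncoupling protein 4, was the only uncoupling protein-like carrier tested under an SLC25A symbol. Its control ratios were -0.18 at the lowest, -0.02 at the median and 0.07 at the highest, and its cold ratios -0.65, -0.21, -0.22 and -0.27. The groups did not overlap, and cold replicate 1 lay far below the other 3 cold arrays. The change was -0.30 (standard error 0.10, unadjusted limma p = 0.0111, adjusted 0.119, exact permutation p = 0.00476). Of its 13 probes, 12 were lower. Without cold replicate 1 the change was -0.20 (standard error 0.08), and with the processed intensities it was -0.74 (standard error 0.28). The change was -0.04 (standard error 0.18) in Cy3 alone and 0.14 in Cy5 alone, and any probe was well above background in Cy5 on 2 of 6 control and 4 of 4 cold arrays. In the deposited value table, the change of SLC25A27 was 0.12 and that of SLC25A36 0.11, both opposite in sign to the values above.

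Carriers without a settled substrate and the outer membrane member split evenly, 3 higher and 3 lower. SLC25A34 showed the largest decrease of the family on the ratio. Its control arrays gave -1.49 at the lowest, -0.68 at the median and -0.42 at the highest, and its cold arrays -2.19, -1.18, -1.68 and -1.45. Control replicates 4 and 5 lay within the cold range and the other 4 control arrays above it. The change was -0.73 (standard error 0.25, unadjusted limma p = 0.0158, adjusted 0.130, exact permutation p = 0.0524), whereas Cy3 alone gave -0.03 (standard error 0.08). Cy5 alone gave 0.03, so neither channel by itself, quantile normalized, showed the change of the ratio. The Cy3 signal of SLC25A34 was weak, with any probe well above background on 5 of 6 control and 4 of 4 cold arrays. SLC25A47 showed the same split between ratio and channels, with -0.51 (standard error 0.23, unadjusted limma p = 0.0485, exact permutation p = 0.0714) on the ratio and -0.34 without cold replicate 1. Its change was -0.11 in Cy3 alone and -0.03 in Cy5 alone. SLC25A35, the nearest relative of SLC25A34, had 1 of the 3 highest ratios to the pool, with 0.41 to 1.00 in control and 0.87, 0.63, 0.43 and 0.84 in cold. Its change was 0.02 (standard error 0.14) and -0.27 (standard error 0.18) in Cy3 alone. The gap between SLC25A35 and SLC25A34 differed by 0.74 in cold with overlap (exact permutation p = 0.110, adjusted 0.137). SLC25A46, a protein of mitochondrial fission and cristae, had a change of -0.17 on the ratio and of 0.28 in Cy3 alone. The changes of SLC25A48 and SLC25A53 were 0.08 and 0.02 on the ratio, and that of SLC25A53 in Cy3 alone was -0.47 (standard error 0.16, limma adjusted p = 0.115). For SLC25A48 the change was 0.86 (standard error 0.29) in the deposited value table and 0.002 in Cy3 alone. Its reference signal was weak, with any probe well above background in Cy5 on 1 of 6 control and 1 of 4 cold arrays.

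Several carriers with a lower mean ratio in cold had their low values on the arrays with a bright reference channel, in both groups. Control replicates 4 and 5 had the highest Cy5 shares above background in control, 48.4 and 54.9%, and also the lowest control ratios of SLC25A1, SLC25A17, SLC25A34 and SLC25A47. Cold replicate 2 had the lowest Cy5 share in cold, 40.5%, and the highest cold ratio of these 4 genes and of SLC25A4. With the Cy5 share of the array as a term of the limma model, a setting chosen after the values had been seen, the change was -0.15 for SLC25A17, -0.14 for SLC25A34, 0.01 for SLC25A47, -0.05 for SLC25A1 and 0.08 for SLC25A4. For SLC25A27, SLC25A36 and SLC25A39 it was -0.18, -0.11 and -0.20, each with a standard error of 0.15 or less. None of the 6 carriers that were lower at a p under 0.05 kept such a p in that setting, where 4.22% of all genes were lower at that p. SLC25A37 had a change of 0.68 there (standard error 0.16, limma adjusted p = 0.277), SLC25A33 of 1.01 (standard error 0.42, limma adjusted p = 0.405) and SLC25A44 of 0.29 (standard error 0.12, limma adjusted p = 0.410), of which the first had an unadjusted p under 0.01. At a p under 0.01 this setting left 742 of all genes, or 2.82%. The Cy5 share is a property of the channel by which the ratio is divided, and it differed between the groups. The term can therefore take out part of a difference between cold and control, and the 2 cannot be told apart here.

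**Figure D4:**
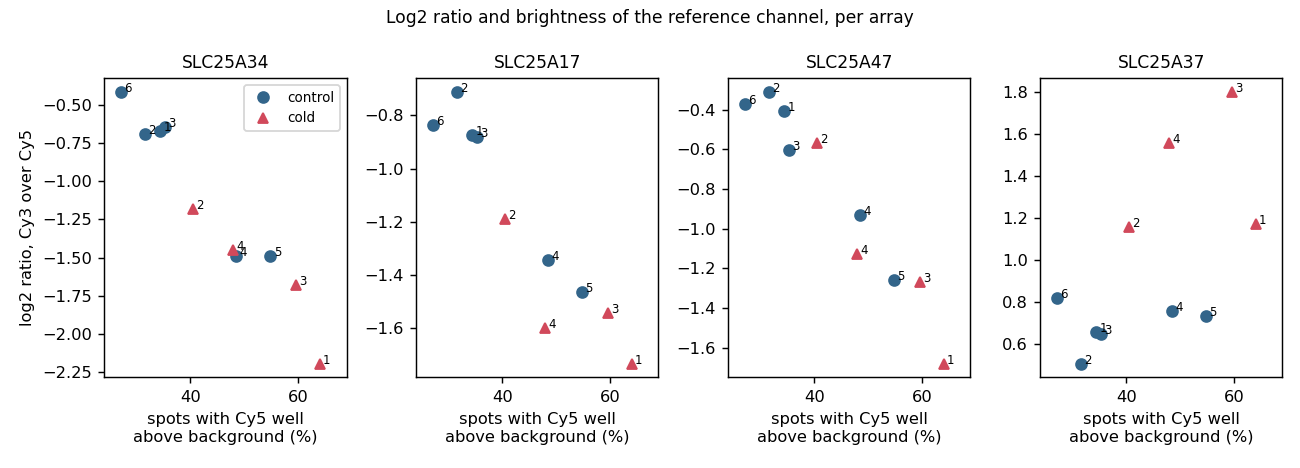
Log2 ratio of 4 carriers (vertical axis) against the percentage of spots whose Cy5 signal was well above background on the same array (horizontal axis). Circles are control and triangles cold arrays, with replicate numbers. For SLC25A34, SLC25A17 and SLC25A47 control replicates 4 and 5, at 48.4 and 54.9%, lie among or beside the cold arrays, whereas for SLC25A37 they lie at 0.76 and 0.73, with the other control arrays.

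In control, 11 of the 26 carriers had a positive log2 ratio to the pool, against 54.4% of all genes. The highest ratios were those of SLC25A37, SLC25A35 and SLC25A38, at 0.68, 0.68 and 0.53, with SDs of 0.11, 0.24 and 0.17, so that neighbours in this order lie within each other's spread. The lowest were those of SLC25A1, SLC25A4 and SLC25A17, at -1.54, -1.08 and -1.02, with SDs of 0.28, 0.44 and 0.31. The last 2 of these are within each other's spread too. A ratio to the pool is no level of RNA, and the order does not rank the carriers by abundance.

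Other genes of the same pathways were counted from lists. Family members with other symbols were represented by UCP2, UCP3, MTCH1 and MTCH2, of which 2 were higher and 2 lower, none with a p under 0.05. UCP2 ran from 0.29 to 0.83 in control and was 0.98, 0.72, 0.79 and 0.30 in cold (change 0.20, standard error 0.15). UCP1, the heat-producing protein of brown fat, was not tested for lack of signal above background. UCP3, at a change of -0.79 on the ratio (standard error 0.39), was at -0.02 in Cy3 alone and 0.03 in Cy5 alone, the same split as SLC25A34. Of other mitochondrial membrane transport proteins, such as the calcium uniporter and sideroflexins, 12 of 20 were tested, 8 higher and 4 lower with a median change of 0.04 and none at a p under 0.01. At a p under 0.05 there was 1 of the 12, lower in cold, where 12.5% of all genes were lower. Of the proteins that import carriers, among them the TIM22 complex, 10 of 13 were tested with a median of -0.05 and none at a p under 0.05.

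Haem synthesis and iron-sulfur assembly stand next to the mitoferrins, and 12 of 16 listed genes were tested, 7 higher and 5 lower with a median change of 0.08. At a p under 0.05 there were 2 higher (12.2% of all genes) and 3 lower (12.5% of all genes), and 2 of the 12 had no overlap between the groups (5.22% of all genes). UROS, an enzyme in the middle of haem synthesis, was 0.15 to 0.66 in control and 2.04, 0.69, 2.29 and 1.54 in cold, without overlap (change 1.25, standard error 0.26, limma adjusted p = 0.0670, exact permutation p = 0.00476). FECH, which inserts the iron into haem and was named here after its values were seen, had no overlap between the groups and was lower in cold. Its control range was -0.21 to 1.63 and its cold values -0.37, -0.43, -0.47 and -0.37, a change of -0.87 (standard error 0.32, limma adjusted p = 0.141, exact permutation p = 0.0333). The other 3 genes at a p under 0.05, also named after their values were seen, overlapped between the groups. These were PPOX, an enzyme late in haem synthesis, with a change of 0.33 (standard error 0.12), ALAS2, the erythroid enzyme of its first step, with -1.12 (standard error 0.38), and TFRC, the receptor that takes up transferrin-bound iron, with -0.48 (standard error 0.20). In the carnitine pathway 5 of 5 genes were tested, 2 higher and 3 lower with a median change of -0.04. SLC22A5, the carnitine transporter of the plasma membrane, was higher by 0.37 (standard error 0.11, limma adjusted p = 0.0989, exact permutation p = 0.00476). It was the 1 gene of the 5 without overlap, in a direction where 3.07% of all genes had none. Of the malate-aspartate shuttle enzymes, 3 of 4 were tested and none had a p under 0.05.

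Markers of blood cells also differed between the groups. All 5 neutrophil markers tested were higher in cold (median change 0.82), and the median of their log2 ratios on an array was 0.68 to 1.56 in control and 1.499 to 2.20 in cold. S100A9 gave 0.47 to 1.99 in control and 2.41, 2.92, 2.97 and 2.51 in cold. All 5 monocyte markers were higher too (median change 0.60, median ratio on an array 0.61 to 1.31 in control and 1.30 to 1.91 in cold), as were all 5 platelet markers (median change 0.87, median ratio on an array -0.04 to 1.32 in control and 0.78 to 2.16 in cold). The T cell list was lower in 5 of 6 genes, with a median change of -0.32 and a median ratio on an array of 0.19 to 0.44 in control and of -0.48 to 0.19 in cold. Of the erythroid markers, 4 of 5 were lower (median change -0.35, median ratio on an array 0.13 to 0.77 in control and -0.24 to 0.30 in cold). HBM, a haemoglobin subunit, had a change of -2.56 (standard error 0.44, limma adjusted p = 0.0576, exact permutation p = 0.00476), while GATA1, a factor of erythroid cells and megakaryocytes, was higher by 0.61 (standard error 0.19). B cell markers were lower in 3 of 4 genes and NK cell markers higher in 3 of 3, all with a p above 0.05. The part of these cell types in the changes of the carriers was not tested.

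The 3 carriers with a p under 0.01 differed in how they held across settings. SLC25A37 was higher in cold in 12 of 13 alternative settings and had a p under 0.01 in 10 of them, and in 10 of 10 fits that left out 1 array. Its adjusted p fell under 0.05 with probes required above background on all 10 arrays (0.0445), without control replicate 5 (0.0416) and without cold replicate 2 (0.0188). SLC25A44 was higher in 13 of 13 settings, with a p under 0.01 in 7 of them and in 8 of 10 fits without 1 array. SLC25A33 was higher in 13 of 13, with a p under 0.01 in 4 and in 2 of 10. Without cold replicate 2, the limma adjusted p was 0.0472 for SLC25A33 and 0.0246 for SLC25A44, and 1272 of all genes passed.

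**Figure D5:**
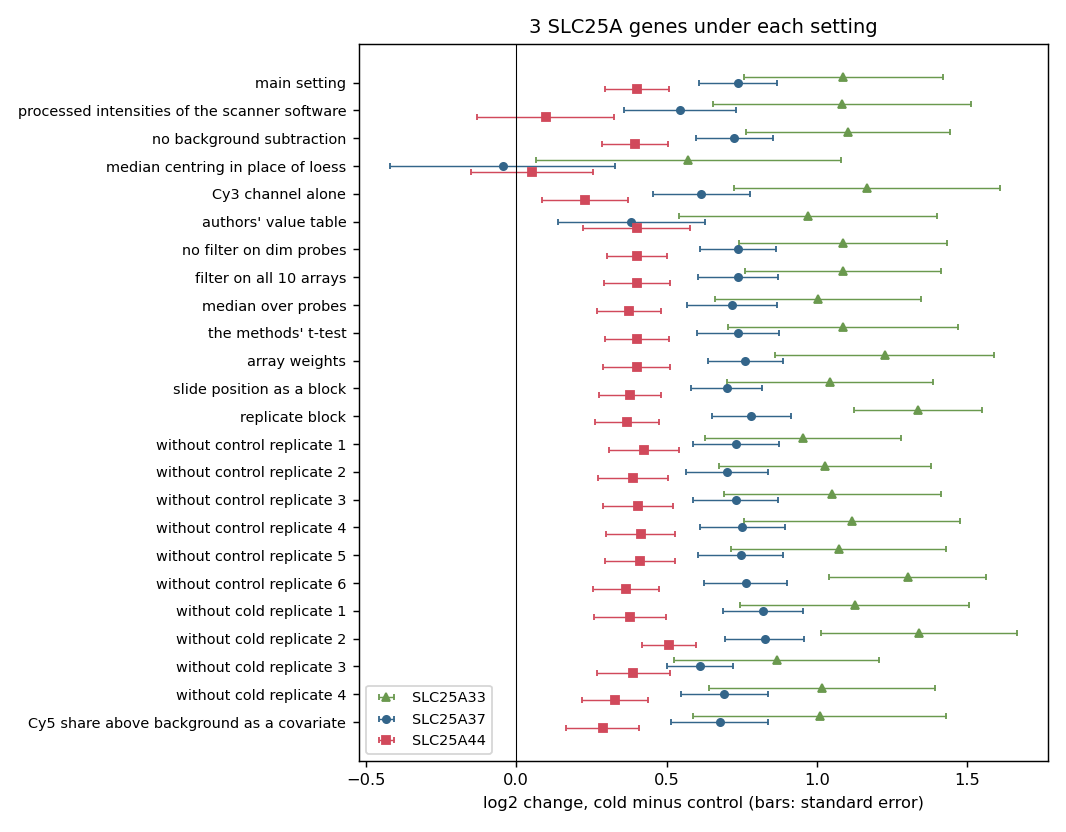
Log2 change, cold minus control, of SLC25A33 (triangles), SLC25A37 (circles) and SLC25A44 (squares) under the main setting and each alternative, with standard errors as bars. All changes are positive except that of SLC25A37 with median centring, at -0.05, and SLC25A44 is close to 0 there and with the processed intensities.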

How the data were processed

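PBMC RNA of 6 control and 4 cold ferrets was measured on 10 2-colour Agilent arrays on separate slides, scanned on 1 day. For each array, the authors deposited intensities written by Agilent Feature Extraction 10.7.3.1 (median and local background of a spot in both channels, with processed values) and, for the series, log2 values of the target sequences in 1 table. Against the scanner intensities that table correlated at 0.999998 (centred within each sequence and array) with log2 Cy3 minus log2 Cy5 without background subtraction. Its array medians are 7.87 to 8.78, so direction is known and the centring constants are not.

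Background was corrected with limma 3.58.1 (R 4.3.3) by normexp with an offset of 50, and ratios were normalized within arrays by loess (span 0.3, 4 iterations). The median spot intensity was used because the files carry no mean. Outlier spots and 15 custom sequences without an accession were left out. A probe was kept with a share of 0.5 of its spots well above background in Cy3 on 4 arrays, which left 111051 of 181312 probes. Probes of a gene were averaged. Names come from the RefSeq table of assembly ASM1176430v1.1, which named 21104 of 45328 target sequences. No coordinates are given, because the build of the probes was not given in the sources used here.

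Groups were compared with lmFit and eBayes, adjusted over all genes. The test was tested on simulated data. Carriers that passed the filter are named, except 1 that is counted but not reported here, with array values for those with a p under 0.01 or no overlap, the largest change of each role group, and the 3 highest and lowest ratios to the pool. The members and gene lists were chosen with earlier results of these data known, and the pairs were formed from these members. Replicate numbers do not pair ferrets of both groups (correlations of deviations -0.30, 0.54, 0.10 and -0.19). P-values measure the spread between ferrets and between their arrays together, since each ferret had 1 array. Alternatives were other intensities, background, scaling, filters, probe summaries, tests, blocks, the value table and leaving out each array.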

Additional observations from a re-analysis of the deposited data

Results flagged for a closer look

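In 4 of 52 sets of arrays (26 carriers in 2 groups), 1 array lay far from the others of its group, a gap that chance gives in about 1 of 20 groups. SLC25A27 was at -0.65 on cold replicate 1, beside -0.27 on the nearest cold array. SLC25A38 was at 0.85 on control replicate 3, beside 0.55 on the nearest control array. On control replicate 5, SLC25A53 was at 0.84 beside 0.40, and SLC25A13 at 0.040 beside -0.07.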

How the results depend on the processing

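The main setting gave 0 carriers at an adjusted p under 0.05, 3 higher and 0 lower at a p under 0.01, 4 higher and 6 lower at a p under 0.05, and a median change of -0.02. With the processed intensities, 0 were higher and 1 (SLC25A32) lower at p under 0.01, 2 higher at p under 0.05, and the median was -0.16. With median centring, 0 were higher and 2 lower at p under 0.01, 0 higher at p under 0.05, and the median was -0.55, beside -0.43 over all genes. Cy3 alone gave 1 higher and 1 lower at p under 0.01, and 740 of all genes passed the adjusted threshold. The value table gave 1 higher at p under 0.01, which was SLC25A48 and none of the 3 of the main setting. It gave 2 lower at p under 0.05 and a median of -0.10. At p under 0.01 there was 1 lower carrier without background subtraction, with the median over probes (median change -0.065) and with the methods' t-test, 2 without a filter and 3 with array weights. A filter on all 10 arrays gave 1 carrier at an adjusted p under 0.05 and 3 lower at p under 0.05, over 23 carriers, and 115 of all genes. The Cy5 share as a term, added after seeing the data, gave 1 higher at p under 0.01 and 0 lower at p under 0.05. Of all genes, 8.64% had a p under 0.01 in the main setting, 5.72% with the processed intensities, 4.42% with median centring, 9.84% in Cy3 alone, 4.16% in the value table, 8.19% without background subtraction, 8.6% with the median over probes, 6.56% with the t-test, 6.95% without a filter, 11% with array weights and 2.82% with the Cy5 share. At a p under 0.05, 7.02% of all genes were higher with the processed intensities and 3.35% with median centring, and 11.2% were lower in the value table, 11.7% with the filter on all 10 arrays and 4.22% with the Cy5 share. The replicate block gave 2 lower carriers at p under 0.01 and moved the count of all genes from 2272 to 2459 (9.35%).

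Leaving out 1 array gave 0 to 3 carriers at an adjusted p under 0.05, 1 to 3 higher and 0 to 3 lower at p under 0.01, 3 to 4 higher and 3 to 9 lower at p under 0.05, and medians of -0.052 to -0.0012. Over the same fits, 4.85% (without cold replicate 3) to 12.9% (without cold replicate 2) of all genes had a p under 0.01, and 633 genes passed the adjusted threshold without control replicate 5, 1272 without cold replicate 2 and 12 without cold replicate 1. At a p under 0.05 in these fits, 8.6 to 13.8% of all genes were higher and 7.59 to 16.3% lower, and the 9 lower carriers were those without control replicate 5, beside 15.9% of all genes. The sign of the change held in every alternative and left-out fit for 8 carriers and turned in at least 1 for 18, SLC25A37 among them. Of the carriers with array values in the report, SLC25A35 was at -0.41 with processed intensities, -0.056 without background subtraction, -0.68 with median centring, -0.27 in Cy3 alone, -0.33 in the value table, -0.0047 with the replicate block, -0.15 with the Cy5 share, and between -0.041 and 0.103 when 1 array was left out, below 0 without control replicate 1, 2 or 6 or cold replicate 1 or 4. SLC25A38 was at -0.019, -0.89, -0.029 and -0.39 with processed intensities, median centring, Cy3 alone and the value table. SLC25A28 kept its sign in 7 of 13 alternatives and 5 of 10 left-out fits, and was at -0.85 with median centring and -0.40 in the value table. SLC25A12 kept it in 11 of 13 and was at -0.13 with processed intensities and with median centring. SLC25A37 was at -0.046 with median centring, SLC25A4 at 0.16 in Cy3 alone and 0.078 with the Cy5 share, and SLC25A27 and SLC25A36 at 0.12 and 0.11 in the value table. The causes were not tested. Probes of SLC25A12, SLC25A27, SLC25A36, SLC25A44, SLC25A48 and SLC25A53 were above background in Cy5 on 3 or fewer control arrays, which limits their ratios.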
